A study of Mus musculus with 9 samples.

Results

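Integrins and the proteins of focal adhesions were examined in whole kidneys from E15.5 mice (E, embryonic day) that differ in stromal *Ntn1*, the gene of the secreted guidance ligand Netrin 1. The 36 genes were listed by role, and each had its own row in the deposited table of 24138 loci. Of these, 32 reached a mean of at least 1 FPKM (fragments per kilobase of transcript, scaled to the size of the library) over the 9 libraries, as did 12915 of all loci. *Itgb8* (0.985 FPKM on average), *Itga7* (0.811), *Parvg* (0.795) and *Itga11* (0.522) lay under that minimum, with *Itgb4* (1.03) and *Itgb3* (1.12) just above it. WT kidneys were *Ntn1fl/fl* without Cre, HET kidneys were *Foxd1GC/+;Ntn1fl/+* and MUT kidneys were *Foxd1GC/+;Ntn1fl/fl*, with 3 kidneys and 3 libraries each from 3 crosses on a C57Bl6/J background and of mixed sexes. The GFP-Cre is knocked into *Foxd1* and expressed in the Foxd1+ stromal progenitors, so HET and MUT share the Cre and the loss of 1 *Foxd1* allele, and *Ntn1* is lost in the stromal lineage and not in the whole kidney. WT therefore differs from HET and MUT in the Cre allele as well as in *Ntn1*.

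Integrins are transmembrane receptors made of an alpha and a beta chain, which bind extracellular matrix outside the cell and the actin cytoskeleton inside it. Talins and kindlins bind the tail of the beta chain and activate the receptor, the ILK, PINCH and parvin complex and vinculin link it to actin, and focal adhesion kinase (*Ptk2*), Src, paxillin and p130Cas (*Bcar1*) signal from the site. In the developing kidney the integrin of *Itga8* and *Itgb1* is the receptor for nephronectin and is required for outgrowth of the ureteric bud, and *Itga3* with *Itgb1* is needed for the glomerular basement membrane.

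Some adhesion genes are known targets of serum response factor, which binds the CArG box, so the promoters were searched for that box on both strands. RefSeq promoters of 300 bases on GRCm38.p6 were given for 28 of the 36 genes, as 35 sequences. The box was in 3 of the 35 (8.57%), against 1.63% of 32851 promoters of all genes. The genes were *Vcl* (vinculin), *Fermt2* (kindlin 2) and *Itgb6*, at 1 of its 2 listed promoters, and their sequences are shown because they hold the box, which is in capitals. The promoter of *Parvb* (beta-parvin) is shown beside them, without a box, since that gene had the largest difference between MUT and HET below.
Vcl: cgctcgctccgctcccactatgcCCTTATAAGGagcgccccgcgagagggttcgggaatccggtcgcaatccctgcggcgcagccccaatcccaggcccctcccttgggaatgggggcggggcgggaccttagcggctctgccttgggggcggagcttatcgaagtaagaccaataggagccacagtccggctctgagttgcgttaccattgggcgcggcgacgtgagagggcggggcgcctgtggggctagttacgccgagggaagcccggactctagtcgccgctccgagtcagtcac
Fermt2: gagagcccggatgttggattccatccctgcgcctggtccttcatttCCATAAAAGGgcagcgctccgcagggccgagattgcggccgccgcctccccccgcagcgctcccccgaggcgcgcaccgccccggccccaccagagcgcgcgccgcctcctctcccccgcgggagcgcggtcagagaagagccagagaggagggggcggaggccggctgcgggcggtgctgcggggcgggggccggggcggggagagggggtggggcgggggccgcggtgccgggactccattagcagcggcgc
Itgb6: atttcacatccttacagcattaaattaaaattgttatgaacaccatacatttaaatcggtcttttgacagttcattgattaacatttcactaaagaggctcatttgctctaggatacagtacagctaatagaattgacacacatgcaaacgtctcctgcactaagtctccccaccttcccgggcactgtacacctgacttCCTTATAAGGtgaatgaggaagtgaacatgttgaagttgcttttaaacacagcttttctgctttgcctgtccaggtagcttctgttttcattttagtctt
Parvb: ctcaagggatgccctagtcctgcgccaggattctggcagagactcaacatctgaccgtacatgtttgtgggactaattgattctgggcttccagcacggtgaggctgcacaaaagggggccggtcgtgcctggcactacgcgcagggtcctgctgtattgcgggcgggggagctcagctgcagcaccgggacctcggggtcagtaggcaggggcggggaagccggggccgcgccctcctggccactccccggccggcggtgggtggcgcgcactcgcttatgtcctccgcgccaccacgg

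These lie at chr14:20929148-20929447 on the plus strand (*Vcl*), chr14:45530016-45530315 on the minus strand (*Fermt2*), chr2:60673644-60673943 on the minus strand (*Itgb6*) and chr15:84231793-84232092 on the plus strand (*Parvb*). The box starts at position -227 from the transcription start in *Vcl*, -204 in *Fermt2* and -50 in *Itgb6*. A match of letters is a description of the window and no measurement of binding. Of the 3 genes with the box, the difference of MUT from HET on the log2 scale was -0.10 for *Vcl*, -0.04 for *Fermt2* and 0.03 for *Itgb6*.

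*Ntn1* was used as a check of the genotypes, and its level parted WT from the Cre carriers but not MUT from HET. The WT libraries held 26.1, 28.9 and 17.8 FPKM, the HET libraries 12.3, 12.0 and 16.5 and the MUT libraries 10.8, 16.5 and 11.0, each in the order of replicates 1 to 3, so every HET and MUT library lay under every WT library while HET and MUT overlapped. *Foxd1* was at 25.8 to 33.7 FPKM in WT, 20.2 to 21.7 in HET and 22.5 to 24.8 in MUT. Kidney lineage markers were present in every library (the summed stromal markers were at 269.6 to 302.4 FPKM and those of nephron progenitors at 177 to 283). Libraries that stood apart were HET-2, with 6 liver markers at a sum of 705 FPKM against 27.2 to 52.2 in the others and erythroid markers at 3035 against 1636 to 2040, and HET-3, with 5 skeletal muscle markers at a sum of 109.5 FPKM against 8.97 to 17.7. Their part in the results was not tested, and values without each library are given beside the counts below. Depth is not recorded, but the spacing of low FPKM gave a relative depth of 0.574 in WT-2 and 0.616 in MUT-3, the shallowest, 1.27 in MUT-1, the deepest, and 0.901 to 1.09 in the other 6.

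**Figure D1:**
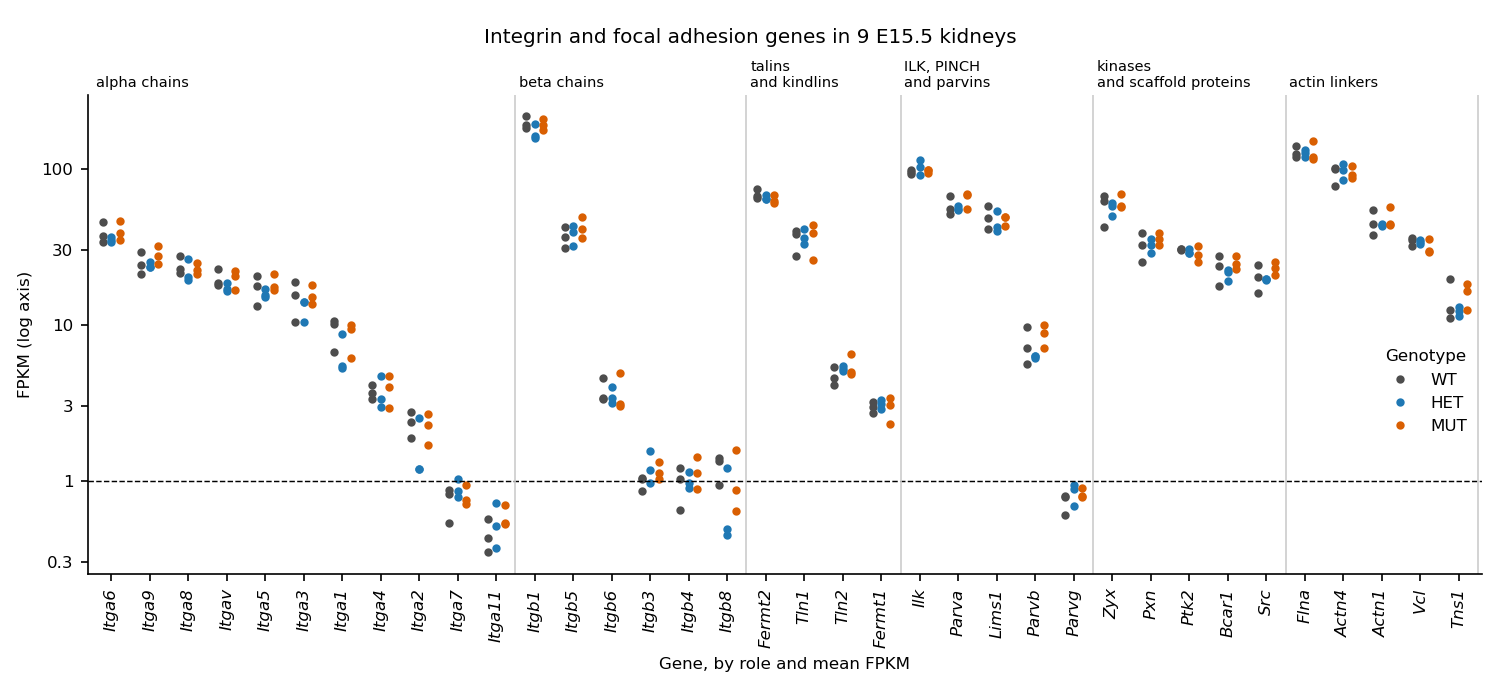
FPKM on a log axis of the 36 genes in each of the 9 libraries, grouped by role and ordered by mean FPKM, with grey, blue and orange points for WT, HET and MUT and a dashed line at 1 FPKM. *Itgb1* is the highest of all, the levels within a role differ far more between genes than between genotypes, and 4 genes lie under the line on average.

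FPKM is scaled to transcript length, so levels can be set side by side between genes. *Itgb1*, the beta chain shared by most matrix integrins, was the highest of the 36 genes, at 182.5, 189.7 and 215.7 FPKM in WT, 162.2, 156.6 and 193.4 in HET and 175.8, 207.5 and 191.4 in MUT. It made up 76.3% to 84.8% of the summed FPKM of the 6 beta chains, followed by *Itgb5*, a partner of alpha v, with 12.2% to 20.7%. No other beta chain exceeded 1.92%. The alpha chains were spread more evenly, and *Itga6*, which pairs with *Itgb1* or *Itgb4* to bind laminin, had the largest share in every genotype mean (24.8% to 25.1%). It was followed by *Itga9* (15.9% to 17.4% by genotype), *Itga8* (14.3% to 15.6%), *Itgav* (12.3% to 12.6%), *Itga5*, the fibronectin receptor chain (10.9% to 11.5%), and *Itga3* (9.17% to 9.67%). The collagen receptor chains *Itga1* and *Itga2* and the chain *Itga4* each had under 7.5% in all libraries, the highest being 7.47% for *Itga1*. The alpha chains summed to 155±19.1 FPKM in WT, 140±5.84 in HET and 160±21.05 in MUT (mean±s.d., n=3 each), ranges that overlap.

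Several intracellular genes were among the most abundant of the 36. *Flna* (filamin A, which crosslinks actin) averaged 127 FPKM, *Ilk* (integrin-linked kinase) 97.9, *Actn4* (alpha-actinin 4) 94.3, *Fermt2* 65.6, *Parva* (alpha-parvin) 59.0 and *Zyx* (zyxin) 58.0. Paralogues were far apart in level. *Parvb* averaged 7.39 FPKM, *Tln2* 5.11 against 35.9 for *Tln1*, and *Fermt1* 2.99.

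The main comparison of the study sets MUT against HET, which share the Cre. No adhesion gene had an adjusted p under 0.05 in it (limma on log2(FPKM + 1), Benjamini-Hochberg over 12915 genes), and 0% of all genes did (0 of 12915, smallest adjusted p = 0.847). At an unadjusted p under 0.05 there was 1 adhesion gene of 32, *Parvb*, against 3.86% of all genes. The paper lists cell adhesion among the processes associated with genes upregulated in this comparison. It chose those genes by cutoffs of fold change and *P*, for which it states no adjustment. That association was not tested here. The log2 fold change was above 0 for 24 of the 32 genes, against 47% of all genes, and its median was 0.13 against -0.01 over all genes. In whole kidneys, a lower level cannot be told apart from fewer cells of the type that expresses the gene. The count was 24 also without HET-2 and without HET-3, and it was 20, with a median of 0.05, without MUT-1. After correction for GC content and transcript length it was 18 of 32, with a median of 0.07. The 95% interval of the difference in FPKM + 1 lay within 1.5-fold in either direction for 27 of the 32 genes. It lay within 2-fold for all 32. The precision thus bounds the size of a difference in FPKM + 1 but does not show that levels were alike. For genes near 1 FPKM the difference in FPKM itself can be larger than these bounds. Which kidney came from which cross is not given in the sources used here, so the p-values measure only the spread between these kidneys.

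**Figure D2:**
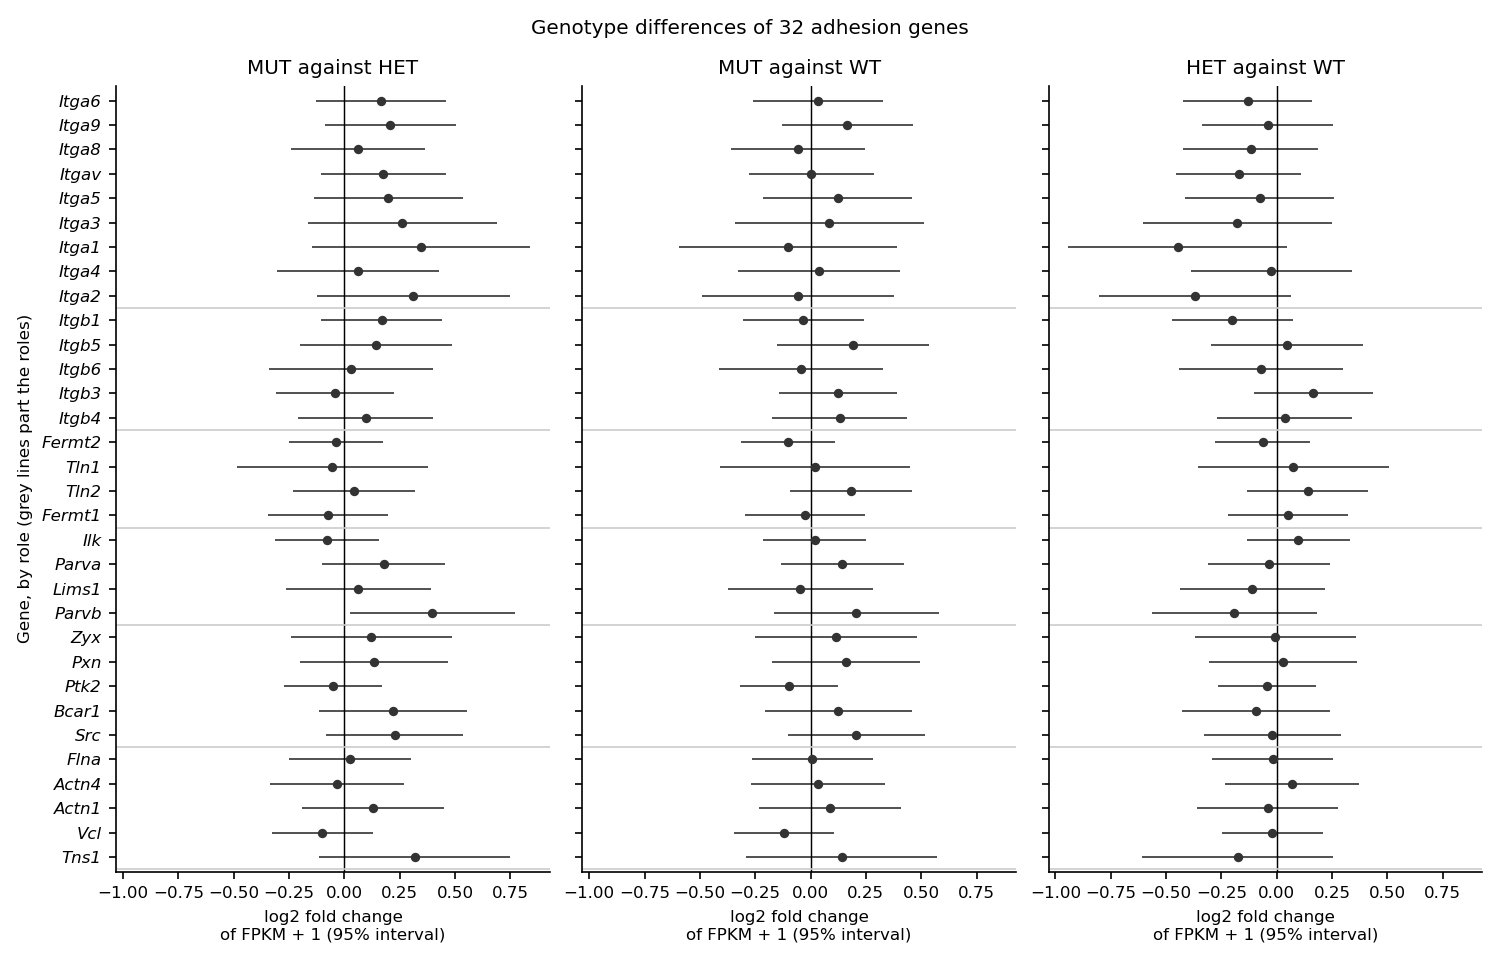
Log2 fold change of FPKM + 1 with its 95% interval from limma for the 32 genes at or above 1 FPKM, in 3 panels for MUT against HET, MUT against WT and HET against WT. In the MUT against HET panel 24 points lie above 0 and the interval of *Parvb* alone leaves out 0, from 0.02 to 0.77 without adjustment for the number of genes.

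For 3 of 32 genes, *Parvb*, *Src* and *Bcar1*, all MUT libraries lay above all HET libraries, against 4.77% of all genes. For 0 of 32 they lay below, against 4.79% of all genes.

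*Parvb*, which binds ILK and alpha-actinin, lies at chr15:84232043-84315609 (mm10), 9.11 kb from *Parvg*. *Parvb* is reported by the paper as upregulated in MUT with weak significance, and as higher by qPCR than in *Ntn1fl/fl* controls. It was at 6.25, 6.14 and 6.26 FPKM in HET, at 9.89, 8.78 and 7.04 in MUT and at 9.61, 7.03 and 5.56 in WT. The HET libraries were nearly identical, the MUT libraries all lay above them, and the WT libraries spanned both. MUT exceeded HET by 0.40 on the log2 scale (standard error 0.17, adjusted p = 0.847 by limma), with a 95% interval from 0.02 to 0.77. MUT exceeded WT by 0.21 on that scale (standard error 0.17, adjusted p = 1.00 by limma). The unadjusted p was under 0.05 in 15 of 23 alternative fits but not with any HET or MUT library other than MUT-3 left out, and without MUT-1 the log2 fold change was 0.30. The lowest adjusted p among those fits was 0.434. The difference of MUT from WT was 0.04 without WT-3 and 0.39 without WT-1, with an unadjusted p under 0.05 in 1 of 23 alternative fits.

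*Src*, the kinase that phosphorylates focal adhesion proteins, lies at chr2:157424293-157471838. It was at 19.6, 19.7 and 19.2 FPKM in HET, at 25.2, 23.0 and 20.9 in MUT and at 24.2, 20.1 and 15.9 in WT. All MUT values were above all HET values and inside or just above the WT range. On the log2 scale MUT was higher than HET by 0.23 (standard error 0.14, adjusted p = 0.847 by limma).

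*Bcar1*, the gene of the Src substrate p130Cas, lies at chr8:111710475-111743849. It was at 22.5, 21.9 and 19.1 FPKM in HET, at 27.3, 24.4 and 22.7 in MUT and at 27.6, 23.6 and 17.7 in WT. Here the lowest MUT and the highest HET library nearly touched, and WT spanned both. The difference of MUT from HET was 0.22 on the log2 scale (standard error 0.15, adjusted p = 0.847 by limma).

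**Figure D3:**
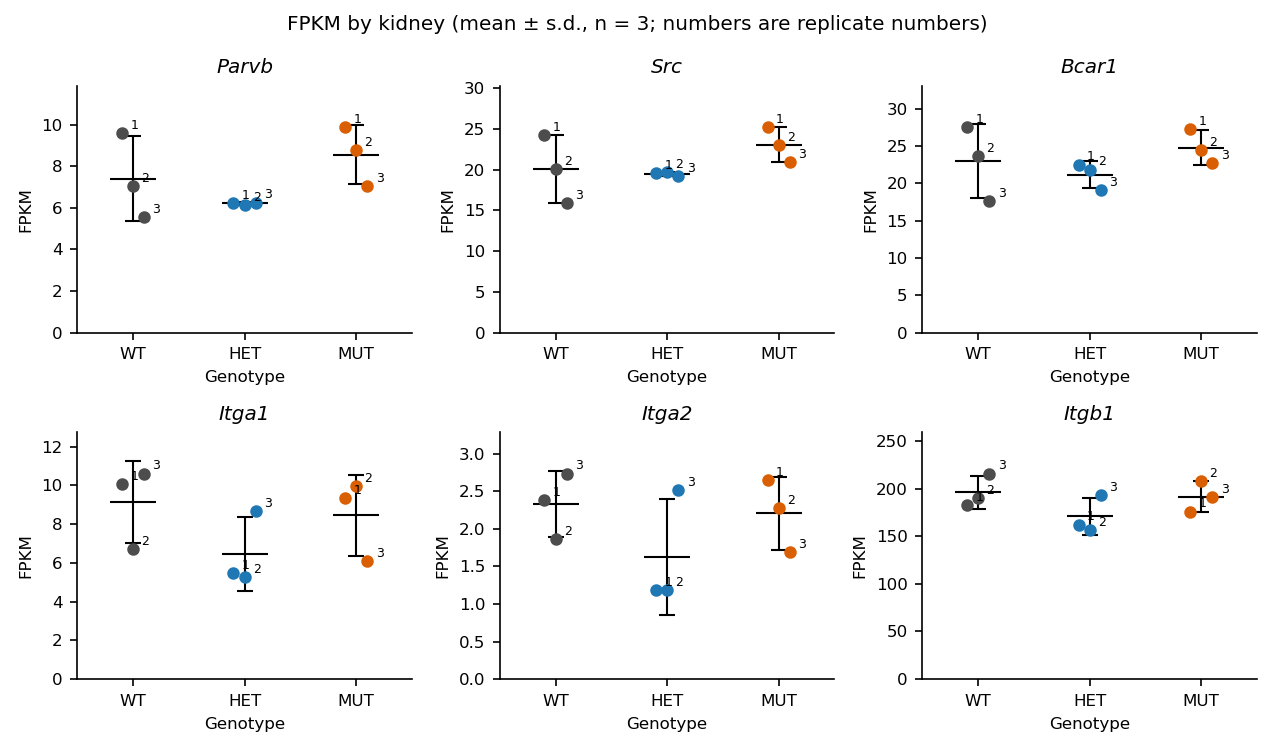
FPKM of *Parvb*, *Src*, *Bcar1*, *Itga1*, *Itga2* and *Itgb1* by genotype, each axis starting at 0, with a point for each kidney (numbered by replicate) and bars for the mean±s.d. of 3. The HET points of *Parvb* sit together at 6.14 to 6.26 FPKM below all MUT points, and HET-1 and HET-2 lie lowest for *Itga1*, *Itga2* and *Itgb1*.

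All 9 alpha chains above the minimum had a log2 fold change above 0 in MUT against HET, from 0.06 (*Itga4*) to 0.35 (*Itga1*) with a median of 0.20, and 0 of 9 passed the adjusted threshold. The same 9 were below 0 in HET against WT, from -0.45 (*Itga1*) to -0.02 (*Itga4*). The comparisons share the HET libraries, and 6 of the 9 were above 0 in MUT against WT. Without MUT-1, 7 of 9 were above 0 in MUT against HET, and without WT-1, 3 of 9 were above 0 in HET against WT.

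*Itga1*, a chain of the collagen IV receptor, lies at chr13:114958081-115101964, and *Itga2*, of the receptor for fibrillar collagen, 26.0 kb from it. *Itga1* was at 10.1, 6.71 and 10.6 FPKM in WT, at 5.45, 5.26 and 8.65 in HET and at 9.33, 9.94 and 6.07 in MUT. *Itga2* was at 2.38, 1.87 and 2.74 FPKM in WT, at 1.18, 1.19 and 2.52 in HET and at 2.65, 2.28 and 1.69 in MUT. In both, HET-1 and HET-2 were the lowest of the 9 libraries while HET-3 lay among the WT and MUT values. HET against WT gave a log2 fold change of -0.45 for *Itga1* (standard error 0.22) and -0.37 for *Itga2* (standard error 0.20), with an adjusted p of 0.999 for both by limma, and neither passed 0.05 before adjustment. Without HET-3 these values were -0.65 and -0.60, and the unadjusted p was under 0.05 in 4 of 23 alternative fits for *Itga1* and in 2 of 22 for *Itga2*, with a lowest adjusted p of 0.768 by limma for both. *Pelo*, another gene, lies inside *Itga1*, and how the counting split reads between overlapping genes is not given in the sources used here.

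*Itga6* was at 45.3, 36.9 and 34.1 FPKM in WT, at 36.2, 34.9 and 34.0 in HET and at 46.0, 38.4 and 34.6 in MUT. WT-1 and MUT-1 stood above the other libraries, which overlapped. Its log2 fold change of MUT against HET was 0.17 (standard error 0.13), and 0.06 without MUT-1. *Itga8*, the nephronectin receptor chain, ranged from 19.3 to 27.4 FPKM, with WT-3 and HET-3 highest and HET-1 and HET-2 lowest, and its log2 fold change was 0.06 (standard error 0.14), which turned to -0.03 after correction for GC content and length.

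Among the beta chains, 4 of 5 were above 0 in MUT against HET and 0 of 5 passed, with *Itgb1* at 0.17 (standard error 0.12) and *Itgb3*, a vitronectin receptor chain, lowest at -0.04. The 4 include *Itgb4*, which reached the minimum mean FPKM only through MUT. *Itgb1* also had HET-1 and HET-2 as its lowest libraries, and its log2 fold change of HET against WT was -0.20 (standard error 0.12). *Itgb5* averaged 36.6±5.55 FPKM in WT, 37.8±5.41 in HET and 42.0±6.79 in MUT. *Itgb6*, an epithelial chain that activates TGF-beta, was highest in MUT-2 (4.93 FPKM) and WT-3 (4.58) and between 2.99 and 3.99 in the others.

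Of the talins and kindlins, 1 of 4 was above 0 in MUT against HET and 0 of 4 passed, with log2 fold changes between -0.07 (*Fermt1*) and 0.04 (*Tln2*). *Fermt2* was at 66.6, 64.5 and 73.5 FPKM in WT, at 63.6, 63.9 and 67.8 in HET and at 67.7, 60.6 and 62.1 in MUT, and its standard error of 0.10 was the smallest among the 32 genes. *Tln1*, the main talin, ranged from 25.9 FPKM in MUT-2 and 27.4 in WT-3 to 43.4 in MUT-1, a wider spread inside MUT and inside WT than between the genotype means (35.1, 36.7 and 35.9 FPKM in WT, HET and MUT).

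In the complex of ILK, PINCH and parvins, 3 of 4 were above 0 in MUT against HET and 0 of 4 passed. *Ilk* was the exception with -0.08 (standard error 0.11), at 95.6, 98.0 and 91.8 FPKM in WT, 102.8, 113.5 and 90.4 in HET and 93.9, 97.7 and 97.5 in MUT. It varied little, and HET-2 was its highest library. *Lims1* (PINCH1) had 0.06 and *Parva* 0.18, with *Parva* at 54.6 to 57.9 FPKM in HET and 55.0 to 68.5 in MUT.

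Of the kinases and scaffold proteins, 4 of 5 were above 0 in MUT against HET, with *Ptk2* the exception at -0.05 (standard error 0.10). *Zyx*, a LIM protein that moves to adhesions under tension, was the most abundant, at 66.7, 62.1 and 42.3 FPKM in WT, 60.2, 57.5 and 49.9 in HET and 68.7, 57.7 and 56.4 in MUT, with WT-3 the lowest of all. Its log2 fold change was 0.12 (standard error 0.16), and 0.03 without MUT-1. *Pxn* (paxillin), the scaffold that recruits *Ptk2*, had 0.13 (standard error 0.15).

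The actin linkers were split, with 3 of 5 above 0 and 2 below, and 0 of 5 passed. *Flna* was at 138.8, 124.0 and 118.1 FPKM in WT, 118.2, 126.2 and 131.0 in HET and 150.3, 115.3 and 119.2 in MUT. Its MUT mean rested on MUT-1, and the log2 fold change was 0.03 with all libraries and -0.09 without MUT-1. *Tns1* (tensin 1), which binds the tail of beta chains, had the largest value of the group, 0.32 (standard error 0.20), with MUT-1 (18.3 FPKM) and MUT-2 (16.3) above HET (11.4 to 13.0) and MUT-3 (12.3) among them. *Vcl* had the lowest value of all 32 genes, -0.10.

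Against WT, 0 of 32 adhesion genes passed in MUT (0% of all genes, smallest adjusted p over all genes 0.314) and 0 had an unadjusted p under 0.05, against 1.38% of all genes. The log2 fold change was above 0 for 22 of 32, against 48.2% of all genes, with a median of 0.04. It ran from -0.12 (*Vcl*) to 0.21 (*Src*). In 0 of 32 genes did the groups not overlap, against 1.73% of all genes with MUT above and 1.91% with MUT below. The count above 0 was 16 without MUT-1, with a median of 0.0049, and 17 without WT-3, with a median of 0.0056. The median was 0.13 without WT-1 and without MUT-3, 0.07 without WT-2 and 0.09 without MUT-2. Without WT-1, 4 of 32 adhesion genes and 694 of 12915 genes had an unadjusted p under 0.05.

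In HET against WT 0 of 32 passed (0% of all genes, smallest adjusted p over all genes 0.360), and 0 had an unadjusted p under 0.05, against 1.15%. The log2 fold change was above 0 for 9 of 32, against 50.2% of all genes, and its median was -0.04. The 9 include *Itgb3*, which lay under the minimum mean FPKM in WT. Groups overlapped for all 32 genes, while HET lay above WT for 2.44% of all genes and below for 1.37%. Without WT-1 the count above 0 was 20 and the median 0.05, and without HET-2 the count was 5, so the direction of the list in this comparison rested on WT-1. The F test over the 3 genotypes called 0 of 32 adhesion genes and 0% of all genes (limma, smallest adjusted p 0.446), and 174 of 12915 genes but 0 of 32 adhesion genes had an unadjusted p under 0.05.

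For all 32 adhesion genes the widest range within a genotype, on log2(FPKM + 1), exceeded the range of the genotype means, as for 98.3% of all genes. Single kidneys tend to range more widely than means of 3 kidneys, so this comparison does not divide the variation into parts. WT-1 and MUT-1 were the highest pair, above the other 7 libraries, for 15 of 32 adhesion genes against 16.3% of all genes. These were *Actn1*, *Bcar1*, *Flna*, *Itga3*, *Itga5*, *Itga6*, *Itga9*, *Itgav*, *Itgb4*, *Parvb*, *Pxn*, *Src*, *Tns1*, *Vcl* and *Zyx*. The median deviation of the 32 genes from their own means was 0.24 in MUT-1 and 0.13 in WT-1, against -0.17 in WT-3 and between -0.08 and 0.06 in the other 6. Over all genes the same medians lay between -0.02 and 0.03. Endothelial markers (5 of 5 above 1 FPKM) moved with this pattern, with a sum of 163 FPKM in WT-1 and 166 in MUT-1 against 132 to 145 in the others. The 5 macrophage markers summed to 19.3 FPKM in WT-1 and 20.7 in MUT-1 against 24.9 to 31.0 in the others. In no other cell type list summed here did WT-1 and MUT-1 both lie above, or both below, all other libraries. Stromal markers, for example, summed to 284 FPKM in WT-1 and 270 in MUT-1 against 276 to 302. Those of smooth muscle summed to 106 and 95.3 against 98.6 to 172. The median transcript GC content was 56.2% in the 15 genes and 48% in the other 17, and the median length was 4382 and 4806 bases. Over all genes with this pattern the GC content was 52.9% against 50.3% for all tested, with a median length of 5247 bases against 3101. The direction in length was thus not the same within the list. The part of these markers and features in the result was not tested.

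**Figure D4:**
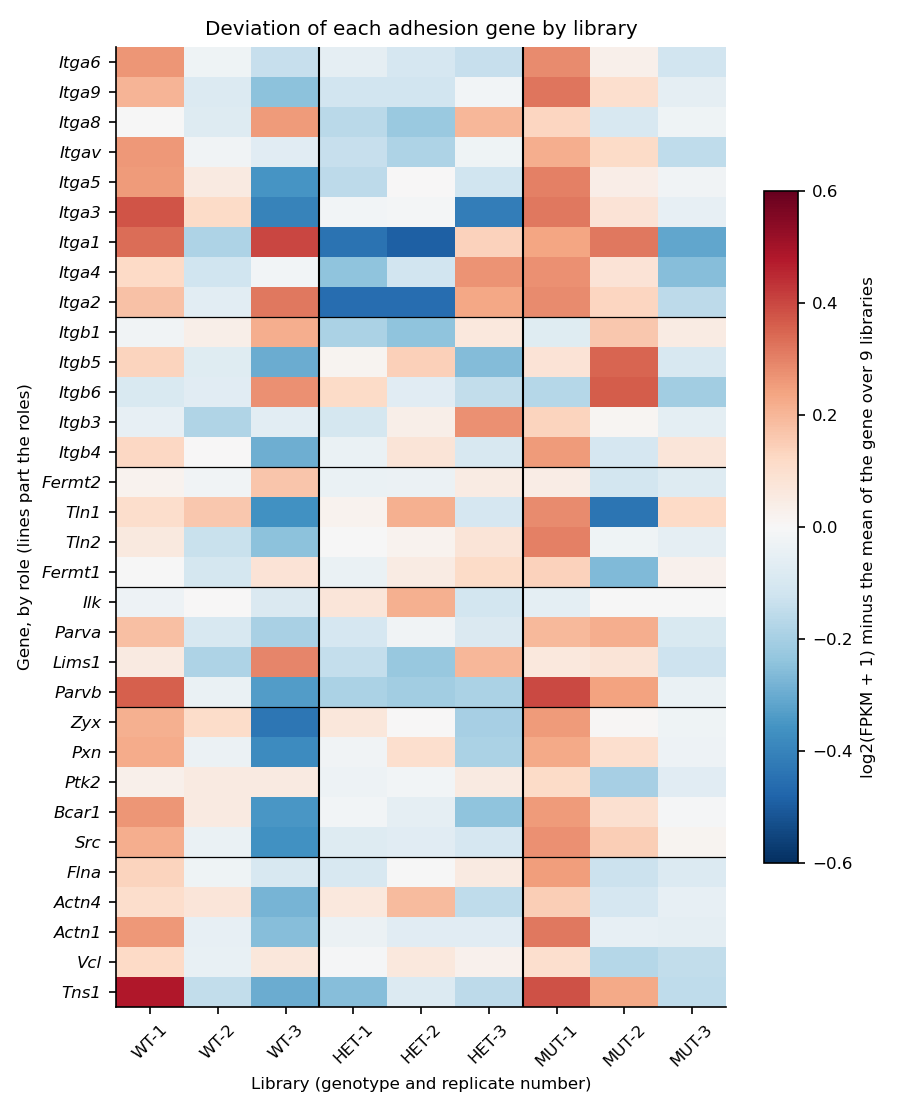
Heat map of log2(FPKM + 1) minus the mean of the gene over 9 libraries, for 32 adhesion genes in rows by role and the 9 libraries in columns by genotype, with red above and blue below the mean and a scale from -0.6 to 0.6. The columns of WT-1 and MUT-1 are mostly red, WT-3 holds the strongest blue for many actin and signalling genes, and HET-1 and HET-2 are bluest at *Itga1* and *Itga2*.

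WT-3 was the lowest library for 14 of 32 adhesion genes and the highest for 6 (*Fermt2*, *Itga1*, *Itga2*, *Itga8*, *Itgb1* and *Lims1*), where all genes had 18.3% and 20.7%. Of the 14, *Actn1*, *Bcar1*, *Itga5*, *Itga9*, *Itgb4*, *Parvb*, *Pxn*, *Src*, *Tns1* and *Zyx* were also among the genes highest in WT-1 and MUT-1. The sets are therefore not separate. The median transcript GC content was 56.4% in the 14 and 43.9% in the 6. Over all genes it was 55.6% where WT-3 was lowest and 44.4% where it was highest, so the pattern was not particular to adhesion genes. HET-1 and HET-2 were below the other 7 libraries for *Itga1*, *Itga2*, *Itga8* and *Itgb1*, 4 of 32 against 9.14% of all genes. As a whole the 32 genes had longer transcripts (median 4741 bases against 3101) and a GC content of 52.5% against 50.3% over all genes tested.

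Ratios within a library, which do not move with its scaling, gave 15 tests of 5 quantities. Exact two-sided permutation tests of 3 libraries against 3 cannot go below p = 0.1. *Parvb* to *Parva* was 0.114, 0.106 and 0.113 in HET and 0.147, 0.128 and 0.128 in MUT, with WT from 0.109 to 0.144. The MUT ratios were all above the HET ratios, by 0.27 on the log2 scale (exact permutation p = 0.1, the smallest possible, and 0.75 adjusted over 15). *Fermt1* to *Fermt2* was 0.0446, 0.0419 and 0.0436 in WT and 0.0451, 0.0487 and 0.0487 in HET, higher by 0.13 on the log2 scale (exact permutation p = 0.1, adjusted 0.75). The MUT ratios of the kindlins, from 0.0381 to 0.0499, spanned both groups. *Tln2* to *Tln1* averaged 0.135±0.0187 in WT, 0.144±0.0195 in HET and 0.156±0.0337 in MUT. *Actn1* to *Actn4* averaged 0.491±0.0479, 0.455±0.0541 and 0.509±0.0332 in the same order. *Itga8* made up 15.6%±3.35 of the summed alpha chains in WT, 15.6%±2.00 in HET and 14.3%±1.32 in MUT. For the last 3 quantities the genotypes overlapped and the exact permutation p was between 0.3 and 1.

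**Figure D5:**
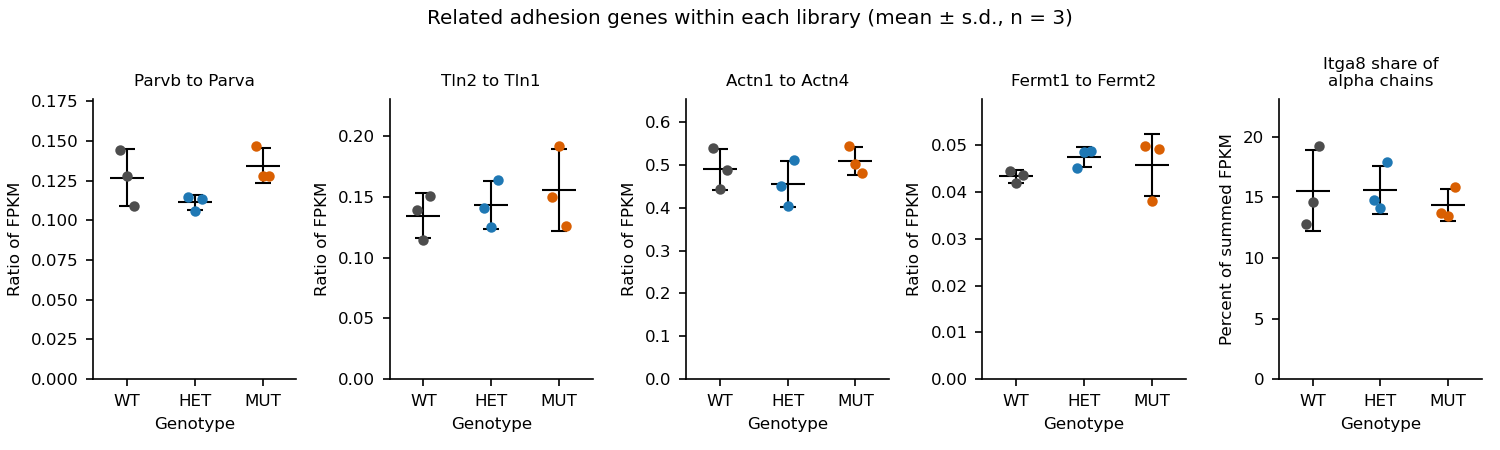
Ratios of FPKM of *Parvb* to *Parva*, *Tln2* to *Tln1*, *Actn1* to *Actn4* and *Fermt1* to *Fermt2* and the percent of *Itga8* in the summed FPKM of the alpha chains, by genotype, with a point for each library, bars for the mean±s.d. of 3 and each axis starting at 0. The MUT points of *Parvb* to *Parva* (0.128 to 0.147) lie above the HET points (0.106 to 0.114).

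Other genes of adhesions, were listed for the pathway and not by their values. Of 46 with at least 1 FPKM, 28 were above 0 in MUT against HET and 18 below, with a median of 0.01, and 0 passed the adjusted threshold. With 1 library left out the median ran from -0.00034 (without MUT-1) to 0.09 (without HET-2). The smallest unadjusted p belonged to *Kank2*, which joins talin to the cell cortex (0.30, standard error 0.13), *Pdlim1*, a partner of alpha-actinin (-0.32, standard error 0.14), and *Cav1*, the caveolae protein (-0.25, standard error 0.12). All had an adjusted p of 0.847 by limma, and the unadjusted p was under 0.05 for *Kank2* and *Pdlim1*, 2 of 46 against 3.86% of all genes. All MUT libraries lay above all HET libraries for 8 of 46 (*Dock1*, *Efs*, *Evl*, *Git1*, *Kank2*, *Limd1*, *Rapgef1* and *Vasp*), against 4.77% of all genes, and below for 2 of 46 (*Cav1* and *Fhl2*), against 4.79%.

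Among 20 integrin ligands outside the collagens and laminins, 12 were above 0 in MUT against HET and 8 below, with a median of 0.07, and 0 passed. Without MUT-1, 9 of 20 were above 0, with a median of -0.0077, and without MUT-3, 14 of 20, with a median of 0.17. *Tgfb1*, whose latent form is a ligand of alpha v integrins, was at 13.2, 13.0 and 13.1 FPKM in HET, 17.3, 15.8 and 15.8 in MUT and 15.2, 15.52 and 12.9 in WT. It was the 1 ligand of 20 with all MUT libraries above all HET libraries, against 4.77% of all genes. It was also the 1 of 20 with MUT above all WT libraries, against 1.73% of all genes. For 0 of 20 did MUT lie below HET or below WT, against 4.79% and 1.91% of all genes. The log2 fold change of *Tgfb1* against HET was 0.30 (standard error 0.10, adjusted p = 0.847 by limma). It was the 1 ligand of 20 with an unadjusted p under 0.05 by limma in MUT against HET, against 3.86% of all genes. The paper names *Tgfb1* among its top upregulated genes in this comparison, and reports it as higher by qPCR than in *Ntn1fl/fl* controls. *Vtn* (vitronectin), which is made by the liver, was at 9.86 FPKM in HET-2, the library with liver markers, and under 0.42 in the other 8. It reached the minimum of 1 FPKM only through HET-2. Its log2 fold change of -1.16 is nevertheless counted among the 8 below 0. The third by p was *Mfge8*, with -0.23 (standard error 0.15). *Npnt* (nephronectin), the ligand of the *Itga8* receptor and added here after its values were seen, was at 76.5, 58.2 and 64.1 FPKM in WT, 59.1, 64.1 and 55.9 in HET and 74.3, 80.2 and 56.5 in MUT, with overlapping genotypes.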

How the data were processed

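Whole E15.5 kidneys were sequenced from stranded poly(A) libraries, 3 each of WT, HET and MUT. STAR was the aligner the authors used, cufflinks and cuffmerge built the transcripts, and CuffDiff gave the deposited FPKM, which were not rescaled here. Versions are not given in the sources used here, and the build is mm10 per the labels. The authors' mean columns were not used. FPKM carry no counts, so depth is unknown and precision comes from the number of kidneys. A range of positions was shared with other rows for 12 of the 36 genes, *Itga6* among them, although each row has its own FPKM, so positions are given only for rows that reach at most 0.04 kb past the annotated gene.

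Loci whose mean over the 9 libraries reached 1 FPKM were put on the log2(FPKM + 1) scale and fitted in limma 3.58.1 (R 4.3.3, eBayes with a trend, all 9 libraries in 1 fit, two-sided, Benjamini-Hochberg, threshold 0.05). A fold change on this scale understates that of low genes. Ratios were tested with exact permutation in scipy 1.17.1. GC content and length are those of the longest coding transcript of GENCODE. Steps were tested on simulated data. Genes named with values in every library are those whose MUT and HET libraries do not overlap, with an unadjusted p under 0.05, or the most abundant of their role, with 3 genes of each other list by p; further genes were chosen after their values were seen. The genes and lists were chosen with earlier results of these data known. Alternatives are given in the closing section.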

Additional observations from a re-analysis of the deposited data

How the results depend on the processing

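No adhesion gene had an adjusted p under 0.05 in any of 23 alternative fits. Over all genes, MUT against WT gave 1 gene without a filter on low values and 4 with GC and length correction, and leaving out 1 library gave 0 to 2 genes (MUT against HET), 0 to 4 (MUT against WT) and 0 to 1 (HET against WT). The adhesion genes above 0 in HET against WT numbered 5 to 20 with 1 library left out, and 20 with WT-1 and MUT-1 both left out, an alternative added after the data were seen. In MUT against HET, the log2 fold change of *Itga8* was -0.032 with GC and length correction, -0.0021 without WT-1 and MUT-1 and -0.019 to 0.19 with 1 library left out. That of *Flna* was -0.099, -0.092 and -0.092 to 0.098 in the same order, that of *Ilk* 0.012 with GC and length correction, and that of *Fermt2* 0.0077 with quantile normalisation. The cause was not tested. With 1 library left out, the log2 ratio differences spanned -0.019 to 0.18 (*Parvb* to *Parva*, MUT against WT), -0.056 to 0.25 and -0.022 to 0.18 (*Tln2* to *Tln1*, MUT against HET and HET against WT), -0.015 to 0.13 (*Actn1* to *Actn4*, MUT against WT), and -0.13 to 0.062 and -0.0035 to 0.19 (*Fermt1* to *Fermt2*, MUT against HET and MUT against WT), and the *Itga8* share -2.60 to 0.643 (MUT against WT) and -1.32 to 1.92 percentage points (HET against WT).

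The replicate number was fitted as a replicate block because the genotypes share numbers. The deviations of same-numbered libraries from their genotype means correlated from -0.274 to 0.557 (WT-1 with MUT-1) and not all over 0.1. The mean correlation was -0.0114, against 0.00528 for different numbers. Deviations from a mean of 3 libraries sum to 0, so these means are tied to each other and cannot settle the pairing. The numbers were not taken to pair the libraries. With the block, 0 genes passed in each comparison, 619, 287 and 167 genes had an unadjusted p under 0.05 in MUT against HET, MUT against WT and HET against WT (499, 178 and 148 without it), and 24, 22 and 9 adhesion genes were above 0, as without it. Fitted in the libraries of the 2 genotypes alone, an alternative added after the data were seen, the block gave 455, 340 and 296 genes.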

Other observations

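Integrin chains of blood cells were low in whole kidney. *Itgal* was at 0.617 to 0.770 FPKM and *Itgam* at 0.354 to 0.491 over the 9 libraries, and *Itgax*, *Itgae* and *Itgad* were under 0.07 in all. *Itga2b*, a platelet chain, was at 0.930 to 1.33 FPKM. *Itgb2*, the beta chain of leukocyte integrins and chosen here after its values were seen, was at 0.664, 0.799 and 0.754 FPKM in HET, at 0.517, 0.457 and 0.458 in WT and at 0.532, 0.636 and 0.454 in MUT. All HET libraries lay above the others, at a level under the minimum of the tests. Among all genes that reached the minimum, all HET libraries lay above WT for 2.44% and above MUT for 4.79%. The 5 macrophage markers summed to 26.3 to 31.0 FPKM in HET, 19.3 to 25.2 in WT and 20.7 to 27.2 in MUT, and *Fermt3*, the kindlin of blood cells, was at 3.48 FPKM in HET-2 against 1.48 to 1.64 in the others. Their part in the values of *Itgb2* was not tested.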
